A study of Mus musculus with 8 samples.

Results

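The Purkinje nuclei of the paraflocculus/flocculus (PF/F) are the nuclei to which the deposited annotation of this region gives the cell type Purkinje. They were matched by library and barcode to the raw matrices of unique molecular identifiers (UMIs), in which each UMI stands for 1 counted RNA molecule. There were 1299 of them among 48237 annotated PF/F nuclei of 16 types, and among 79313 annotated nuclei of both tissues of the series. The library of WT replicate 1 held 299, that of Tbx1+/- replicate 1 held 307, that of WT replicate 2 held 297 and that of Tbx1+/- replicate 2 held 396. Wherever 4 values are given in a row, they follow this order.

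Purkinje cells are the output neurons of the cerebellar cortex. They are large GABAergic neurons that receive parallel fibres from granule cells and climbing fibres from the inferior olive, and their glutamate and calcium signalling is the basis of cerebellar synaptic plasticity. In the newborn cerebellum they also secrete Sonic hedgehog, which drives the division of granule neuron progenitors (GNPs), and they fall into molecular subsets that later form parasagittal stripes. The flocculus and paraflocculus take part in the control of eye movements during head movement.

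The study profiled nuclei of PF/F and of petrous temporal bone from mice at postnatal day 5.5, to ask whether loss of 1 copy of Tbx1 alters the cells of either tissue. Tbx1+/- mice carry 1 targeted allele of this T-box transcription factor gene in every cell from conception, and WT littermates were the controls, all on the C57BL/6J background, at the same age and without treatment. Each library pooled the tissue of 5 mice, so the library was the replicate, with 2 libraries per genotype. Libraries with the same replicate number were prepared together from separate sets of mice and are called batch 1 and batch 2. The sex of the pooled mice is not labelled.

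Depth per library was 44713226 to 60627200 UMIs over 10583 to 17103 barcodes. The summed Purkinje nuclei held 1979890, 1734332, 2506852 and 3250556 UMIs. The median Purkinje nucleus had 6549, 5653, 8533 and 7987 UMIs, against 2555 in GNPs over all libraries. The median share of mitochondrial UMIs in Purkinje nuclei was 0.800%, 0.632%, 0.217% and 0.296%. Both differed more between batches than between genotypes. No Purkinje barcode occurred in more than 1 library, whereas 259 barcodes of all annotated nuclei did. Levels are counts per 1000000 UMIs (CPM) of the summed nuclei of a type. They were not divided by transcript length, so a level is compared between types or libraries and not between genes. Differences between types are descriptions, since the annotation rests on the same counts.

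The markers of Purkinje cells were high in these nuclei in every library. Calb1, which encodes the calcium buffer calbindin, stood in the Purkinje sums at 1075, 1040, 880 and 1002 CPM. The next type, Immune, was at 94.4 ± 58.6 CPM (SD, n = 4), so every Purkinje library was above it. Pcp2, a regulator of G-protein signalling found almost exclusively in Purkinje and retinal bipolar cells, stood at 369, 364, 250 and 255 CPM. The next type, Pericyte, was at 85.2 ± 42.9 CPM (SD, n = 4) from 74 nuclei in all. A Calb1 UMI was found in 92.9% to 96.7% of Purkinje nuclei of each library and in 9.86% to 23.8% of GNPs, which should lack the gene, at a lower depth. Skor2, a transcriptional corepressor needed for Purkinje differentiation, had a UMI in 52.1% to 66.9% of Purkinje nuclei and in 0.0846% to 0.283% of GNPs. After each nucleus was thinned to 2000 UMIs, the share with Skor2 was 24.9% to 25.7% in Purkinje nuclei of every library, with 7 shallower nuclei left out. The 5 Purkinje markers together reached 5151 to 6097 CPM.

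Markers of other cells were low but present in the Purkinje sums. The granule neuron list stood at 165 to 324 CPM, the granule progenitor and cycling list at 30.7 to 104 CPM, the astroglia list at 81.0 to 127 CPM, the interneuron list at 240 to 300 CPM, the erythroid list at 118 to 155 CPM and the choroid plexus list at 52.3 to 141 CPM. Granule and cycling markers were higher in both libraries of batch 1 than in both of batch 2. The counts had no correction for free RNA, and what part of these levels came from free RNA was not tested.

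A set of 20 leading genes was chosen by their ratio to the highest other type, and so had to be far higher in Purkinje nuclei. They are given as a description. The lowest ratio over the 4 libraries ran from 25.7 for Gm36431, a long noncoding RNA, to 5.44 for Stac. Among those with the clearest known roles, Car8, an inhibitor of the binding of IP3 to its receptor, was at 2230 ± 213 CPM (SD, n = 4) against 144 ± 9.41 in Oligodendrocyte. Itpr1, the IP3 receptor that releases calcium from the endoplasmic reticulum, was at 5518 ± 516 CPM (SD, n = 4) against 462 ± 53.7 in GABA.interneuron.progenitor. Slc1a6, the Purkinje glutamate transporter EAAT4, was at 374 ± 9.22 CPM (SD, n = 4) against 24.8 ± 9.24 in Immune. Esrrb, an orphan nuclear receptor, was at 147 ± 19.9 CPM (SD, n = 4), and Bcl11a, a zinc finger transcription factor, at 709 ± 93.4 CPM (SD, n = 4). All 20 genes kept at least a 5.44-fold lead over every other type in every library.

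Several of the leading genes are noncoding and little known. Gm32647 lies on chromosome 7 from 94042691 to 94709171 of GRCm38, and stood at 1338, 1372, 1873 and 1587 CPM. Gm44040, at 675 ± 61.9 CPM (SD, n = 4), is annotated on the minus strand of chromosome 6 from 108519029 to 108525687, within the span of Itpr1 on the plus strand from 108213096 to 108551109. Dhx58os, at 74.0 ± 7.75 CPM (SD, n = 4), overlaps Zfp385c on the other strand of chromosome 11. The sources used here do not state whether strand was used in counting. Whether the counts of Gm44040 and Dhx58os are separate from those of the genes they overlap was not tested.

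**Figure D1:**
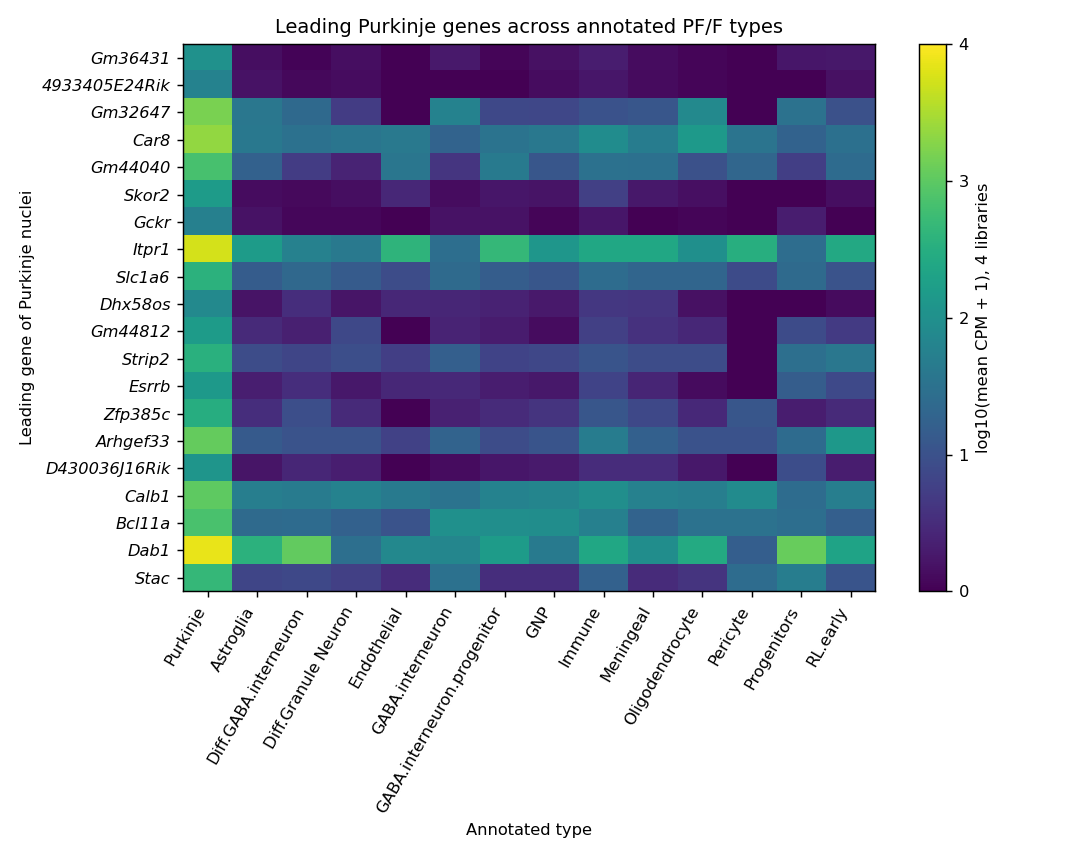
Each row is 1 of the 20 leading genes and each column an annotated PF/F type, of which not all 16 are drawn, and colour gives log10 of the mean CPM plus 1 over 4 libraries. The Purkinje column is the brightest of those drawn in every row, with Itpr1 (5518 CPM) and Dab1 (7480 CPM) near the top of the scale, and Dab1 is next in Progenitors (1159 CPM).

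Transcription factors of the Purkinje lineage were nearly all detected. Of 19 factors on the list, 7 were highest in Purkinje nuclei among the 16 types, as were 713 of the 10001 genes (7.13%) with at least 10 CPM there. The list counts here and below include genes under 10 CPM, so their base differs from that of this share. Foxp2, a forkhead factor of Purkinje cells, was at 1591, 1706, 2240 and 2306 CPM, against 537 ± 125 CPM (SD, n = 4) in Meningeal. Rora, the nuclear receptor mutated in the staggerer mouse, was at 6837, 7696, 8298 and 7427 CPM, against 5141 ± 548 in differentiated GABA interneurons (Diff.GABA.interneuron). The 4 Purkinje libraries lay above that mean for both genes. Ebf1 was at 5551 to 6110 CPM against 4807 ± 425 in Pericyte, and Lhx1, a LIM factor of early Purkinje cells, was at 145 to 232 CPM below GNP at 291 ± 66.7. En1, at 1.54 to 2.79 CPM, and En2, at 3.59 to 6.92 CPM, were near the floor of detection.

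Apart from the marker list itself, the pathway list most often highest in Purkinje nuclei was calcium signalling, with 19 of 33 genes ranked first. Among the top 3 types were 26 of 33, against 1914 of the 10001 genes with at least 10 CPM. This list includes the Purkinje markers Calb1 and Car8, so its count is not independent of the annotation. Cacna1a, the P/Q-type calcium channel pore, was at 1610 to 1918 CPM. Plcb4, the phospholipase C of zebrin-negative Purkinje cells, was at 469 to 680 CPM, far below GABA.interneuron at 2666 ± 237. Ppp1r17, a phosphatase inhibitor of mature Purkinje cells, was low at 9.60, 18.4, 18.4 and 14.8 CPM but highest in Purkinje nuclei, with 2.26 ± 4.53 CPM in Immune. Pvalb, the calcium buffer parvalbumin of mature Purkinje cells, was at 5.56 to 6.34 CPM.

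The promoters of a few genes highest in Purkinje nuclei are shown. All of these hold a marked run of letters, so they are examples and not a sample of such genes. The letters are from RefSeq for GRCm38.p6, and each run is the 250 bases before the start of the gene, 5′ to 3′ on the strand of the gene. Pcp2, on the minus strand at chr8:3625548-3625797 before the farthest upstream of 4 listed starts, and Pcp4, on the plus strand at chr16:96467356-96467605, carry AGGTCA, the core site of nuclear receptors such as Rora, in capitals as read on either strand, 12 and 164 bases before the start. Slc1a6, at chr10:78780246-78780495, and Itpka, the IP3 kinase of Purkinje spines, at chr2:119742087-119742336, both on the plus strand, carry CCCNNGGG, the core of the site of Ebf factors, in capitals, 78 and 51 bases before the start.
Pcp2: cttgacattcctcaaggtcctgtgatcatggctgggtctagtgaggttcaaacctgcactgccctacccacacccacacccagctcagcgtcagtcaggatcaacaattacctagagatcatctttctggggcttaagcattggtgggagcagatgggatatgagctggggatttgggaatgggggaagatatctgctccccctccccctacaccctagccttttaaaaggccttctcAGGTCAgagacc
Pcp4: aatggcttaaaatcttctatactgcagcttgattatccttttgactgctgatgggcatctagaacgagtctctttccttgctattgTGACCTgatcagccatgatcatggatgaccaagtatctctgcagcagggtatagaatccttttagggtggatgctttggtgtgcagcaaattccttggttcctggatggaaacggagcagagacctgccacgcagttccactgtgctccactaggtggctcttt
Slc1a6: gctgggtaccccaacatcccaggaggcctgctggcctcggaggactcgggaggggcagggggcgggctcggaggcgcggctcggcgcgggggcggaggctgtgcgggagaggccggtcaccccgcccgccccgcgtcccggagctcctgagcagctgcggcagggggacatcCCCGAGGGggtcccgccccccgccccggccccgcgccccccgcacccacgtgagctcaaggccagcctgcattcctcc
Itpka: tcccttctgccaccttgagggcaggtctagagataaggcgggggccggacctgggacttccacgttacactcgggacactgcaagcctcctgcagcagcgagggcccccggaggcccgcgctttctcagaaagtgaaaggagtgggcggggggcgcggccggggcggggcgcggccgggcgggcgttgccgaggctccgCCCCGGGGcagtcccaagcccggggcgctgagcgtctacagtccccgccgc

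The same letters were also common before other genes. Of 53 list genes highest in Purkinje nuclei, 32 had a promoter in the table, and 4 of these (12.5%) held AGGTCA on either strand, namely Homer3, Pcp2, Pcp4 and Plcb3, against 13.8% of 27025 genes. CCCNNGGG was before 6 of the 32 (18.75%), namely Atp2b2, Cck, Itpka, Kcnma1, Slc1a6 and Zdhhc8, against 11.6% of all genes. Of the 20 leading genes, 13 had a promoter in the table. AGGTCA was before 1 of these (7.69%), Arhgef33, and CCCNNGGG before 1 (7.69%), Slc1a6. A match is a run of letters and not a bound site, and Calb1, Car8 and Itpr1 were not among the matched genes.

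At the parallel and climbing fibre synapse, 4 of 30 genes were highest in Purkinje nuclei. Gria2, an AMPA receptor subunit, was at 2271 to 2628 CPM and Shank2, a scaffold of the postsynaptic density, at 578 to 647 CPM, both first of the 16 types. The ligands of this synapse were low. Cbln1, a synapse organiser secreted by granule cells, was at 13.4 ± 2.04 CPM (SD, n = 4), the lowest of the 16 types, and C1ql1, the climbing fibre ligand, was at 2.31 to 5.56 CPM, also the lowest. Of the NMDA receptor subunits on the list, Grin2b was at 59.8 to 106 CPM against 1489 ± 28.1 in Diff.Granule Neuron and Grin2a at 2.31 to 8.59 CPM, both the lowest of the 16 types, whereas Grin1, at 156 to 173 CPM, ranked 5.

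Of 19 genes of GABA synthesis and GABA-A receptors, 0 were highest in Purkinje nuclei. Gad1, the main enzyme of GABA synthesis, was at 85.4, 84.8, 74.2 and 80.6 CPM against 807 ± 61.6 (SD, n = 4) in differentiated GABA interneurons. Gad2 was at 149 to 184 CPM and Slc32a1, the vesicular GABA transporter, at 25.1 to 47.3 CPM, both ranked 3 of the 16 types. All 4 Purkinje libraries were below the mean of differentiated GABA interneurons for Gad1 and for Slc32a1, which was there at 102 ± 10.0 CPM (SD, n = 4). Of the channels that set Purkinje firing, 7 of 29 were highest in Purkinje nuclei. Kcnma1, the BK potassium channel, was at 1554, 1970, 2020 and 2066 CPM, and Kcnn2, the SK2 channel, at 561 to 726 CPM. Scn4b, the subunit of resurgent sodium current in mature Purkinje cells, had UMIs in 1 library only, at 0.615 CPM.

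Signals between Purkinje cells and their neighbours were next. Dab1, the adaptor through which Reelin places Purkinje cells, was at 6556, 7182, 8066 and 8114 CPM against 1159 ± 87.3 in Progenitors, and its receptor Vldlr at 136 to 162 CPM was also first, whereas Reln itself was at 60.6 to 118 CPM against 1777 ± 186 in Diff.Granule Neuron. Shh, the Purkinje mitogen for GNPs, was at 21.7, 28.3, 17.2 and 15.4 CPM, and the next type was Pericyte at 5.33 ± 10.7 CPM (SD, n = 4). A Shh UMI was found in 11.9% to 14.3% of Purkinje nuclei and in 0.0462% to 0.225% of GNPs and 0.0925% to 0.297% of differentiated GABA interneurons. At 2000 UMIs per nucleus the Purkinje share was 2.93% to 5.72%. The receiving side of the pathway showed the reverse order, with Ptch1 at 38.7 to 66.7 CPM in Purkinje nuclei against 326 ± 28.3 in GNP and Gli1 at 1.01 to 2.31 CPM against 42.0 ± 3.00 in GNP. Among growth factor genes, Ntrk3, the receptor for neurotrophin-3, was at 1130 to 1483 CPM and first of the types, and Bdnf had UMIs in 1 library only, at 0.923 CPM.

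Of 24 genes known for stripes and subsets of Purkinje cells, 7 were highest in Purkinje nuclei. Epha5, an ephrin receptor, was at 1530 to 1906 CPM, and Pcdh10, a protocadherin of early Purkinje clusters, at 286 to 332 CPM. Some stripe markers were near the floor. Aldoc, the zebrin II antigen, was at 9.09, 2.88, 2.79 and 1.85 CPM and Hspb1 at 0.505 to 2.31 CPM. Nrgn was at 0 in 2 libraries and at most 0.798 CPM in the others. Of 28 spinocerebellar ataxia genes, 7 (25%) were highest in Purkinje nuclei, while Pdyn was at 0 in all 4 libraries. Of 40 genes of the 22q11.2 syntenic region, 1 (2.5%) was highest in Purkinje nuclei, Zdhhc8, at 23.2 to 30.8 CPM, level with Progenitors at 26.9 ± 18.9 CPM. The share among all genes at 10 CPM or more was 7.13%, and 23 of the 40 reached that level. Over 15731 genes, the Purkinje profile was most like that of GABA.interneuron (Pearson's r = 0.900 of log levels over genes, which are not independent), then differentiated GABA interneurons (0.898) and Progenitors (0.890). These 3 types share libraries and free RNA with Purkinje nuclei.

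**Figure D2:**
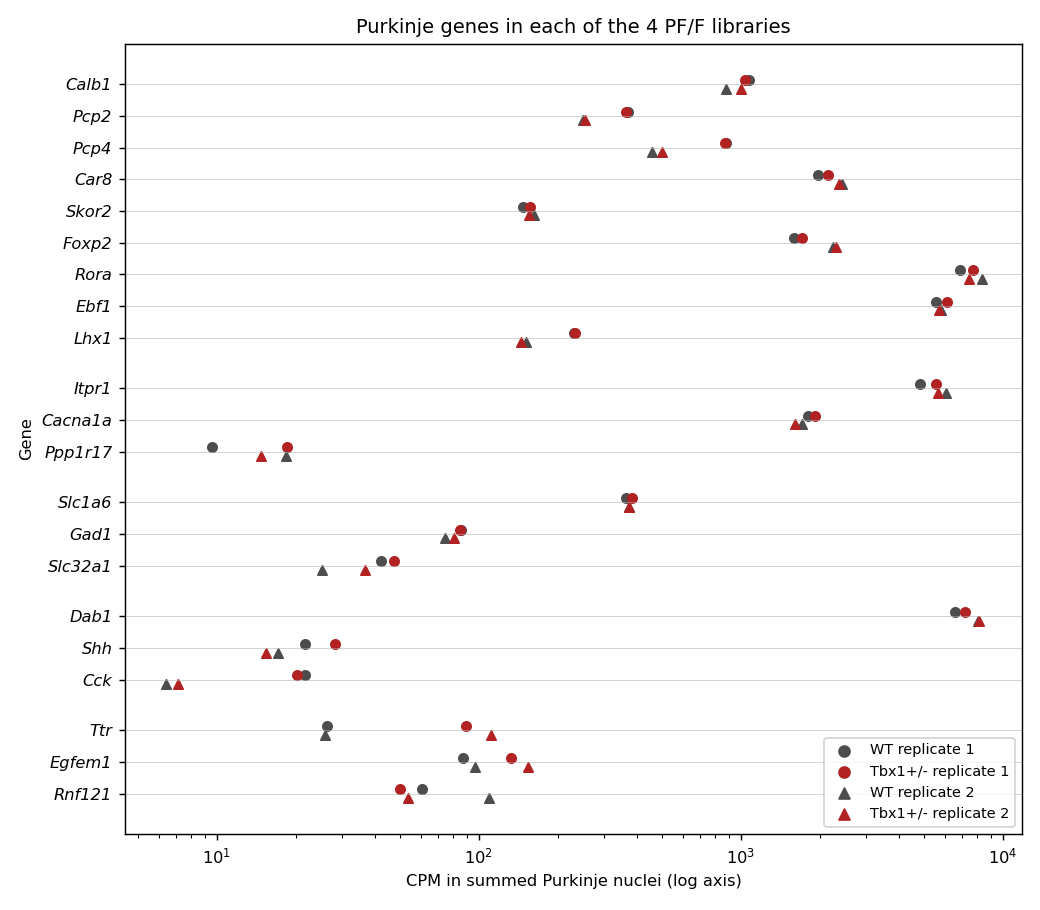
Each point is the level of 1 gene in the summed Purkinje nuclei of 1 library, in CPM on a log axis. Grey marks WT, red Tbx1+/-, circles batch 1 and triangles batch 2. Most genes lie close together in all 4 libraries, Pcp2, Pcp4, Lhx1 and Cck separate by batch, and Ttr separates by genotype (26.3 and 25.9 CPM in WT, 89.4 and 111 in Tbx1+/-).

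Some Purkinje genes differed between the batches in both genotypes. These were chosen after their values were seen and were not tested. Pcp4, the calmodulin regulator PEP-19, was at 876 and 871 CPM in batch 1 and 458 and 499 in batch 2, a mean log2 difference of -0.87. Cck, the peptide cholecystokinin, was at 21.7 and 20.2 CPM in batch 1 and 6.38 and 7.08 in batch 2, a difference of -1.51. Pcp2 differed by -0.54 and Lhx1 by -0.64, whereas Foxp2 was higher in batch 2 by 0.46. Pcp2 was also lower in batch 2 in GNPs, at 97.0, 81.8, 28.8 and 38.7 CPM, and the mitochondrial share fell in the same direction. The counts left after the authors' correction for free RNA were 0.760, 0.767, 0.823 and 0.820 of the raw UMIs in the median Purkinje nucleus, lower in batch 1. The part of free RNA or of RNA quality in these batch differences was not tested.

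The effect of genotype was examined next, starting with the targeted gene. Tbx1 had 0 UMIs in the Purkinje nuclei of all 4 libraries, which allows up to 1.52, 1.73, 1.20 and 0.923 CPM at 3 counts. The gene therefore gave no check of the genotype labels here.

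A single gene differed between Tbx1+/- and WT Purkinje nuclei. Ttr, which encodes transthyretin, a thyroid hormone carrier made mainly by the choroid plexus, was at 26.3 and 25.9 CPM in the WT libraries and at 89.4 and 111 CPM in the Tbx1+/- libraries, without overlap. Its log2 difference was 1.97 (SE 0.22, adjusted p = 0.0256, edgeR's quasi-likelihood test over 12851 genes), and it was higher in both batches, by 1.73 and 2.06 on the scale of log2 of CPM plus 1. It was the only gene called, at an adjusted p under 0.05 and a change above 1.5-fold (0.00778% of genes tested, 138 at an unadjusted p under 0.05), and DESeq2 also called 1. When the marked barcodes described at the end were added to the Purkinje nuclei, the difference was 1.91 and not called (adjusted p = 0.716, edgeR), 19 genes were called when WT replicate 1 was left out and 3 when WT replicate 2 was. Every one of the 16 PF/F types had more Ttr in Tbx1+/- than in WT in both batches, with the highest levels in RL.early, at 1395, 2757, 1343 and 4287 CPM. The other choroid plexus genes on the marker list were Kcnj13 at 30.3, 31.1, 24.7 and 28.3 CPM and Folr1 at 1.52, 2.31, 1.60 and 1.23 CPM. Meninges markers in the Purkinje sums were at 29.3, 54.2, 10.4 and 22.5 CPM and erythroid markers at 128, 149.9, 118 and 155 CPM, both higher in Tbx1+/- in each batch. Neither list had a called gene, with a median log2 difference of 1.09 over 2 meninges markers tested and 0.46 over 5 erythroid markers. The part of RNA from these cells, or of free Ttr RNA, in the Ttr difference was not tested.

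The block for batch, which the replicate numbers define, raised the count of calls from 1 to 3 (0.0233% of genes tested, 540 at an unadjusted p under 0.05). The added genes are outside the naming rule and were chosen after their values were seen. Egfem1, which encodes a protein with EGF-like domains, was at 86.9, 133, 96.9 and 154 CPM, a log2 difference of 0.67 with the block (SE 0.12, adjusted p = 0.00337, edgeR) and of the same size without it (adjusted p = 1.00, edgeR). Rnf121, a ubiquitin ligase of the secretory pathway, was at 60.6, 50.2, 109 and 53.8 CPM, a log2 difference of -0.71 with the block (SE 0.15, adjusted p = 0.0343, edgeR). The Tbx1+/- libraries of Egfem1 lay above both WT libraries, and those of Rnf121 below, but Rnf121 rested on WT replicate 2, without which it differed by -0.13. With the marked barcodes added, Egfem1 differed by 0.18 without the block. Xist, the X-inactivation RNA, was at 304, 430, 637 and 754 CPM, and was higher in Tbx1+/- in both batches in 14 of 16 types. The sex of the pools is not labelled.

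No gene of any Purkinje list was called for genotype with or without the block, against the 0.00778% of all genes given above. The medians of the log2 differences, Tbx1+/- minus WT, were 0.01 for transcription factors, 0.06 for calcium signalling, 0.06 for the parallel and climbing fibre synapse, 0.01 for GABA synthesis and receptors, 0.05 for excitability channels, 0.08 for stripe and subset genes, 0.02 for the Reelin pathway, 0.06 for the Hedgehog pathway, -0.10 for growth factors and receptors and 0.05 for both ataxia genes and 22q11.2 syntenic genes, against -0.00 for all genes. Of all genes 21.5% were higher in Tbx1+/- in both batches and 26.6% lower. Of the calcium signalling list, 8 of 33 genes (24.2%) were higher in both and 5 lower. Of the lists just given, those farthest apart in the share higher were excitability channels, with 11 of 27 (40.7%) higher in both and 4 lower, and growth factors and receptors, with 1 of 15 higher and 5 (33.3%) lower. Without the block, Calb1 differed by 0.09 (SE 0.24), Pcp2 by 0.03 (SE 0.25) and Shh by 0.14 (SE 0.30), all with adjusted p = 1.00 by edgeR. Pcp2 and Shh changed sign when a library was left out. These SEs include the difference between batches. With the block, Calb1 differed by 0.10 (SE 0.09) and was not called. The lowest unadjusted p on these lists belonged to Rtn4r, the Nogo receptor gene of the 22q11.2 region, at 5.05, 7.50, 4.79 and 10.5 CPM (log2 difference 0.94, SE 0.40). Next were Ttbk2, an ataxia gene (-0.74, SE 0.33), and Aifm3 of the 22q11.2 region (-0.67, SE 0.30), neither of which was called.

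**Figure D3:**
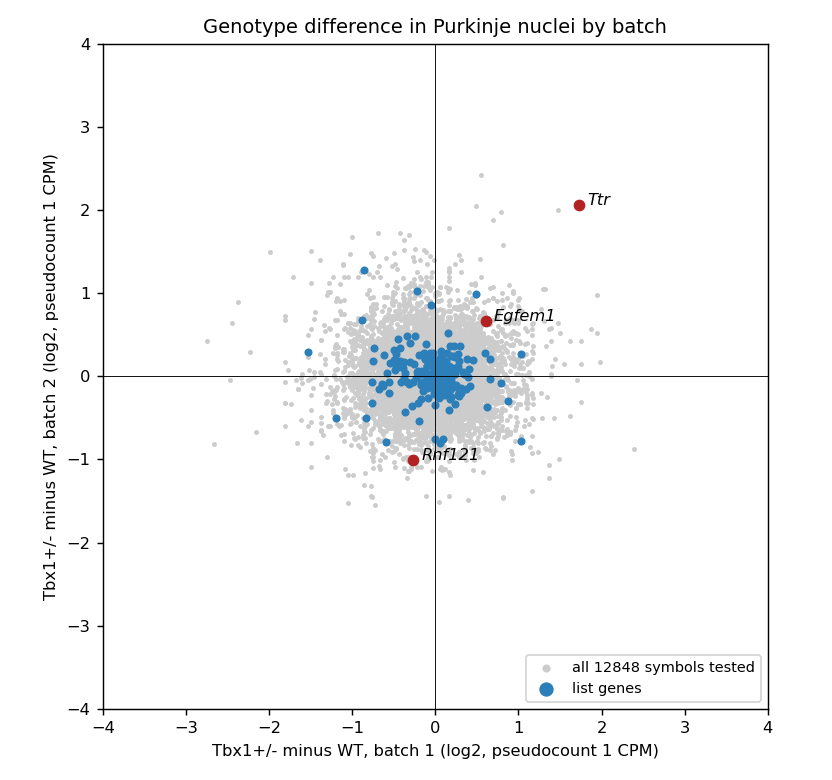
Each grey point is 1 of the symbols tested in Purkinje nuclei, placed by its difference Tbx1+/- minus WT in batch 1 (x axis) and in batch 2 (y axis), both as log2 of CPM plus 1. Blue points are list genes, most of which lie in the middle of the cloud, and red points are Ttr (1.73 and 2.06), Egfem1 (0.60 and 0.67) and Rnf121 (-0.27 and -1.01).

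The number of Purkinje nuclei did not separate the genotypes. Of all annotated nuclei they were 2.44% (95% exact binomial interval 2.17% to 2.73%), 2.22% (1.98% to 2.48%), 3.24% (2.89% to 3.63%) and 3.05% (2.76% to 3.36%). These intervals cover counting error only. Tbx1+/- was lower within each batch, but both batch 2 libraries were above both batch 1 libraries. The log2 difference of the share was -0.11 (SE 0.28, adjusted p = 0.976 over the 16 types, edgeR). Its sign turned with nuclei of at least 2000 genes (0.16), without Tbx1+/- replicate 1 (0.10) and without WT replicate 2 (0.11), and it was -0.35 without Tbx1+/- replicate 2 and -0.30 without WT replicate 1. Per 100 GNPs there were 12.6, 9.87, 16.8 and 18.3 Purkinje nuclei, so the sign differed between the batches (log2 difference -0.36 and 0.12, exact permutation test p = 1.00, two-sided). The median UMIs per Purkinje nucleus differed, Tbx1+/- minus WT, by -896 in batch 1 and -546 in batch 2 (exact permutation test p = 0.667, two-sided). With 2 libraries against 2 the smallest p this test can give is 0.333.

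Whether the genotype difference was particular to Purkinje nuclei was asked by its interaction with cell type, against differentiated GABA interneurons, the GABAergic type with the most nuclei (3601). No gene was called among 14844 (0% of genes tested, 521 at an unadjusted p under 0.05, edgeR's quasi-likelihood test), nor with RLE factors (545 at an unadjusted p under 0.05). DESeq2 was not run on this comparison. Ttr differed between Tbx1+/- and WT by 0.36 more in Purkinje nuclei on the log2 scale (SE 0.27, adjusted p = 1.00, edgeR), with 47.1, 73.1, 42.7 and 200.1 CPM in the interneurons. This value rested on single libraries, and was 1.11 without Tbx1+/- replicate 2 (SE 0.27, adjusted p = 1.00, edgeR) and -0.02 without Tbx1+/- replicate 1. The count rested on the libraries used, with 14 genes called when WT replicate 1 was left out and 1, Il1rapl2, when Tbx1+/- replicate 1 was.

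Purkinje nuclei varied among themselves far more in some genes than counting alone gives. After thinning to 2000 UMIs, the ratio of variance to mean over the nuclei of a library, which is 1 for counting noise, had a median of 1.03 over 5303 genes in each library, and 65 genes exceeded 2 in all 4. Some genes with the highest ratios were chosen for these values and are given as a description. Lsamp, a cell adhesion protein of neurons, had ratios of 15.9, 16.8, 23.1 and 23.2, and Gm32647 of 16.5, 14.4, 19.8 and 20.3. Malat1, an abundant nuclear RNA, was next with 12.2, 11.4, 12.8 and 11.6. Rora had ratios of 7.23 to 9.16, Plcb1, a phospholipase C, of 6.36 to 7.73, and Gpc6, a glypican, of 5.85 to 7.48. The ratio was high in every library for each of these genes, in both genotypes. At the same relative spread the ratio is larger for abundant genes. The part of level or of RNA quality in these ratios was not tested.

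To describe these differences, the nuclei of each library were divided by a gene of known Purkinje subsets, and the sums of high and low nuclei were compared with the library as a term in edgeR's fit. The median after thinning was 0 in every library for each gene used, so high nuclei were those with at least 1 UMI, and the remainder, called low, include nuclei that hold the gene's RNA below this depth. Rorb, a nuclear receptor, marked 124 of 1292 nuclei, Cdh9, a classical cadherin, 139, Foxp1, a forkhead factor, 465, and Ebf2, a factor of the stripe negative for zebrin II, 66. Etv1 marked only 10 nuclei. Ebf2-high nuclei were 3.36%, 2.62%, 5.42% and 8.12% of the nuclei. Rorb-high nuclei were 7.61% to 12.8%, Cdh9-high nuclei 9.06% to 13.9% and Foxp1-high nuclei 30.9% to 39.8%. Among Diff.GABA.interneuron, Diff.Granule Neuron, GNP and Astroglia nuclei so thinned, Rorb was most frequent in Astroglia (44.4% to 45.7%). Foxp1 was most frequent in Diff.Granule Neuron (54.5% to 60.1%), Ebf2 in GNP (4.57% to 5.97%) and Cdh9 in Diff.Granule Neuron (1.74% to 2.83%). The part of RNA from these types in marking high nuclei was not tested. The divisions use the same nuclei, so their results are set side by side and their likeness is not tested.

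In nuclei with Rorb, 127 of 9818 genes were called (1.29%), 80 higher (0.815%) and 47 lower (0.479%), whereas with no filter on low counts 67 were higher and 123 lower. Slit3, a secreted guidance cue, was at 233, 219, 276 and 268 CPM in Rorb-high nuclei and at 95.7, 81.3, 70.7 and 76.7 CPM in the low nuclei, without overlap (log2 difference 1.60, SE 0.14, adjusted p = 3.83e-09, edgeR). Pbx3, a homeobox factor, was at 431 to 594 CPM in high and 157 to 242 CPM in low nuclei (1.25, SE 0.11), and Cdh10, a cadherin, at 341 to 404 against 121 to 179 CPM (1.16, SE 0.12). The ephrin receptor Epha5 and the ephrin Efna5 rose too, Epha5 from 1428, 1518, 1807 and 1816 CPM in low to 2216, 2623, 2926 and 3138 CPM in high nuclei (0.69, SE 0.08). In the other direction, Gm32647 fell from 1427 to 2026 CPM in low nuclei to 247 to 741 CPM in high nuclei (log2 difference -1.90, SE 0.17), and Cntn3, a contactin, from 250 to 342 CPM to 45.0 to 114 CPM (-1.79, SE 0.18). Cntn4, another contactin, was at 475 to 604 CPM in high and 746 to 1129 CPM in low nuclei (-0.86, SE 0.11). High and low libraries did not overlap for any gene named so far. Such genes were picked for small p and a like direction in all libraries, which favours this. Cadm2 and 9630028H03Rik, also lower and picked by the same rule, did overlap. Gria3, an AMPA receptor subunit (-0.91, SE 0.15), and Esrrb (-0.78, SE 0.17) were also lower.

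Among 18 stripe and subset genes tested, 4 were higher in Rorb-high nuclei, Pcdh10, Epha5, Cdh9 and Efna5, and Epha4 and Ebf2 were lower, with a median of -0.14 against 0.01 for all genes. Astroglia markers stood at 280, 57.9, 276 and 165 CPM in Rorb-high nuclei and at 104, 93.3, 62.8 and 93.9 CPM in low nuclei, above the low nuclei in 3 of 4 libraries, and of 2 such markers tested Slc1a3, an astroglial glutamate transporter, was called higher. Their part in the calls was not tested. Without nuclei with 3 or more astroglia UMIs, 86 genes were called, of which 72 were among the 127. The count was 65 in thinned sums, 58 with DESeq2, 77 without WT replicate 2 and 79 without Tbx1+/- replicate 2. Progenitor and cycling markers were at 162, 90.0, 61.8 and 40.2 CPM in high and 95.1, 81.9, 27.5 and 43.0 CPM in low nuclei. Granule neuron markers were higher in high nuclei in 3 of 4 libraries. Of 2 interneuron markers tested, Sorcs3 was called lower. The part of RNA from these cells in the calls was not tested.

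Nuclei with Cdh9 showed 111 called genes of 10039 (1.11%), 50 higher (0.498%) and 61 lower (0.608%), and 32 and 93 with no filter. Cdh10 was at 561, 301, 649 and 551 CPM in Cdh9-high nuclei and at 169, 125, 126 and 146 CPM in low nuclei (log2 difference 1.92, SE 0.10), and Pcdh10 was at 640 to 835 against 230 to 281 CPM (1.48, SE 0.09). Rorb was itself higher, at 98.0, 264, 142 and 242 CPM against 71.3, 66.2, 58.9 and 54.7 CPM (1.61, SE 0.15). Nrp1, a semaphorin receptor, rose by 1.12 (SE 0.20). Robo1, a receptor of Slit proteins, was lower, at 65.3 to 89.8 CPM in high against 199 to 275 CPM in low nuclei (-1.66, SE 0.15), as was Plcb1 (-0.84, SE 0.07). All of these were without overlap between high and low nuclei, whereas Il1rapl2 and Brinp3, also called lower, overlapped. Of 19 stripe and subset genes tested, 5 were higher, Pcdh10, Epha5, Nrp1, Efna5 and Rorb, and Epha4 and Plcb4 lower, with a median of -0.20 against 0.00 for all genes. Granule neuron markers stood at 348, 351, 156 and 159 CPM in Cdh9-high nuclei and at 322, 259, 166 and 191 CPM in low nuclei, higher in batch 1 alone. None of 5 such markers was called, nor any of 3 interneuron markers (median 0.43). Reln, which was far higher in Diff.Granule Neuron than in Purkinje nuclei, was called higher. The part of RNA from these cells in the calls was not tested. The count was 62 in thinned sums, 59 with DESeq2 and 72 without WT replicate 2.

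Nuclei with Foxp1 were the largest high group, and 93 of 10681 genes were called (0.871%), 46 higher (0.431%) and 47 lower (0.44%). Robo1 was at 277, 336, 429 and 319 CPM in Foxp1-high nuclei and at 145, 157, 145 and 176 CPM in low nuclei (log2 difference 1.11, SE 0.09). Lsamp fell from 4833, 4650, 5640 and 6223 CPM to 2006, 2406, 3313 and 3250 CPM (-0.98, SE 0.05), Gpc6 from 919 to 1073 CPM to 357 to 632 CPM (-1.21, SE 0.07) and Sema3a, a repulsive semaphorin, from 345 to 532 CPM to 196 to 314 CPM (-0.96, SE 0.08). None of these 4 genes overlapped between high and low nuclei, whereas Grik2, called higher, and Cdh12, called lower, did. Ppp1r17 was lower (-1.70, SE 0.32), at 1.60 to 13.1 CPM in high and 13.3 to 23.4 CPM in low nuclei. None of 19 stripe and subset genes was called, with a median of -0.06 against 0.01 for all genes. Granule neuron markers stood at 358, 312, 189 and 225 CPM in Foxp1-high nuclei and at 309, 243, 151 and 162 CPM in low nuclei, higher in all 4 libraries. None of 5 such markers was called (median 0.28), and Reln and Grin2b, which were far higher in Diff.Granule Neuron than in Purkinje nuclei, were called higher. The part of granule RNA in the calls was not tested. The count was 39 in thinned sums and 25 with DESeq2, 7 higher and 18 lower.

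Nuclei with Ebf2 were few, and 157 of 9920 genes were called (1.58%), 54 higher (0.544%) and 103 lower (1.04%), and 37 and 123 with no filter. Gpc6 was at 1652, 1733, 3098 and 2289 CPM in Ebf2-high nuclei and at 714, 706, 790 and 602 CPM in low nuclei (log2 difference 1.57, SE 0.14). Plcb1 was at 3517 to 6851 against 1976 to 2464 CPM (1.10, SE 0.13), and Plcb4, known from the zebrin-negative stripe, at 1063, 896, 1030 and 1236 against 496, 456, 562 and 632 CPM (0.91, SE 0.14). Slc1a6, known from the zebrin-positive stripe in the adult, was at 262, 299, 351 and 167 CPM in high and 367, 388, 376 and 392 CPM in low nuclei (-0.64, SE 0.18). Both genes were without overlap. Nrp1 was at 0, 39.8, 0 and 7.60 CPM in high nuclei and 42.8 to 57.6 CPM in low nuclei, and Egfem1 at 3.80 to 59.7 against 88.2 to 168 CPM (-2.86, SE 0.39). Rora (-0.91, SE 0.13) and Foxp2 (-0.65, SE 0.14) were lower too, Foxp2 without overlap and Rora with it. The noncoding genes with the largest rises, 4930438E09Rik (3.67, SE 0.34) and 1700120O09Rik (4.25, SE 0.54), lie inside the span of Ebf2 on the other strand of chromosome 14, at 67332042 to 67397742 and 67324894 to 67335928 against 67233292 to 67430918. Whether their counts are separate from those of the gene used to divide the nuclei was not tested. Of 19 stripe and subset genes tested, Plcb4 and Cck were higher and Epha5, Nrp1, Slc1a6 and Efna5 lower, with a median of -0.27 against -0.06 for all genes. Astroglia markers stood at 65.4, 59.7, 45.8 and 53.2 CPM in Ebf2-high nuclei and at 129, 91.0, 82.6 and 103 CPM in low nuclei, lower in all 4 libraries. The medians of the log2 differences were -0.77 over 2 astroglia markers and -1.18 over 2 oligodendrocyte markers, none of them called. Progenitor and cycling markers stood at 131, 139, 53.4 and 22.8 CPM in high and 103, 80.9, 29.1 and 44.6 CPM in low nuclei. They were higher in high nuclei in every library but Tbx1+/- replicate 2, with a median of 0.34 over 3 markers tested, none called. Of 3 interneuron markers tested, Sorcs3 was called lower. The part of RNA from these cells in the calls was not tested. The count was 49 in thinned sums, 65 with DESeq2, 103 without WT replicate 2 and 92 without Tbx1+/- replicate 2.

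**Figure D4:**
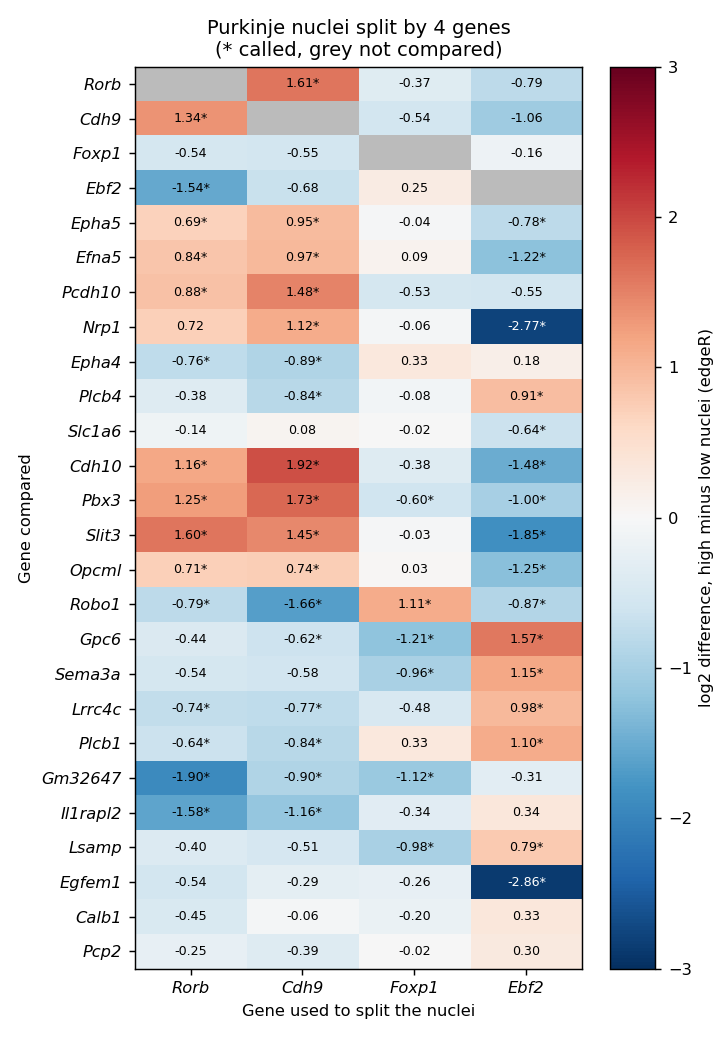
Each cell gives the log2 difference between high and low Purkinje nuclei for 1 gene (row) when nuclei were divided by 1 gene (column), and a star marks a called difference. Red is higher and blue lower in the high nuclei. Epha5 and Efna5 are red for Rorb and Cdh9 and blue for Ebf2, Robo1 is red for Foxp1 alone, and the bottom cells for Calb1 and Pcp2 are pale with no star.

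Set side by side in the order Rorb, Cdh9, Foxp1 and Ebf2, the log2 differences of Epha5 were 0.69, 0.95, -0.04 and -0.78, and all but the Foxp1 value were called. Those of Efna5 were 0.84, 0.97, 0.09 and -1.22, again called for all but Foxp1. Robo1 gave -0.79, -1.66, 1.11 and -0.87, all called, and Gpc6 -0.44, -0.62, -1.21 and 1.57, called for all but Rorb. Pcdh10 gave 0.88, 1.48, -0.53 and -0.55, of which the Rorb and Cdh9 values were called. Calb1 and Pcp2 were called in none of them, with Calb1 at -0.45, -0.06, -0.20 and 0.33 and Pcp2 at -0.25, -0.39, -0.02 and 0.30. The 10 Etv1-high nuclei were too few to describe. The fit called 20 of 9028 genes (0.222%), 3 higher (0.0332%) and 17 lower (0.188%), but the median of all genes was -0.64. With RLE factors 4 genes were called, all higher, of which 3 were among the 20.

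Some Purkinje nuclei lay close to the upper limit of UMIs in the annotation. The highest annotated nucleus of any type had 11236, 8859, 14501 and 15658 UMIs. At 75% of that value or more were 20.4%, 23.1%, 21.2% and 9.85% of Purkinje nuclei, against 1.30% to 2.54% of all annotated nuclei. The share was lowest in Tbx1+/- replicate 2. Barcodes outside the annotation held further profiles of this kind. Those with at least 1000 detected genes, at least 3 UMIs over the 5 Purkinje markers and more UMIs on that list than on any other were counted as marked, and numbered 118, 175, 99 and 100. Of these, 71, 103, 67 and 55 had more UMIs than the highest annotated nucleus of their library. They may include doublets, which were not called, and the comparisons above use annotated nuclei unless stated.

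**Figure D5:**
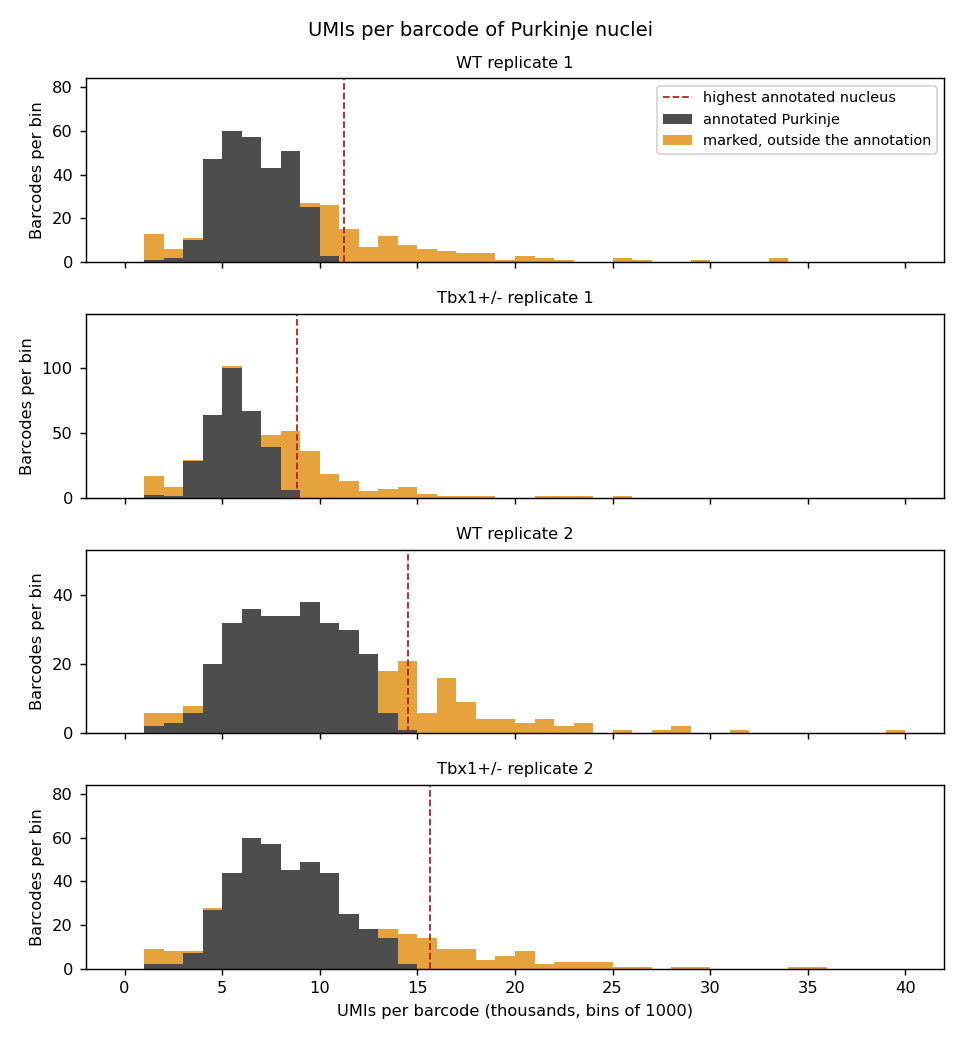
Each panel is 1 library, the x axis is UMIs per barcode in units of 1000 and the y axis the number of barcodes per bin of 1000 UMIs. Dark bars are annotated Purkinje nuclei, orange bars stacked on them are marked barcodes outside the annotation, and the dashed line is the highest annotated nucleus of any type. The last dark bar lies in the bin that holds the line or just below it and orange bars continue beyond the line in all 4 libraries, and 3 barcodes above 40000 UMIs are not drawn.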

How the data were processed

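Nuclei of PF/F of mice at postnatal day 5.5 were sequenced in 4 libraries, each from a pool of 5 mice. Per the file headers and the study's methods, the authors made the deposited UMI counts with Cell Ranger 7.0.0 on mm10 with intronic reads. The counts precede the limits on nuclei that the annotation used. Their annotation, after limits on genes (at least 1000), UMIs and mitochondrial share (3 median absolute deviations), free RNA correction with SoupX and clustering, also deposited estimated counts per nucleus left after that correction, used here only as a ratio to the raw UMIs. Raw UMIs were summed per library and annotated type, with no correction for free RNA and no doublet caller. The members and gene lists were chosen with earlier results of these data known. Gene spans are from GENCODE, in which 32235 of 32285 features were found. No column of per-sample values was left unused (0). Genes were tested with edgeR 4.0.16 (quasi-likelihood, filterByExpr, TMM) in R 4.3.3, and called at a Benjamini-Hochberg adjusted p under 0.05 and above 1.5-fold. The interaction was called on the adjusted p alone, and shares of nuclei at 0.1. Single values were compared by exact permutation tests. High and low nuclei were set in counts thinned to 2000 UMIs (1292 nuclei, 7 left out) and compared with library as a term. Purkinje levels against other types were not tested. Scripts used Python 3.11.15 and were tested on simulated data. Named were list members, the 20 leading genes at 50 CPM or more, and up to 10 called genes per direction with the smallest p that moved alike in both batches or all 4 libraries, and others are marked as chosen after their values were seen. Replicate numbers were taken as pairs because the study's second set of mice was a separate experiment, and same-numbered libraries deviated together (r = 0.369 over 12851 genes). Alternatives were RLE factors, DESeq2 1.42.0, no filter, the replicate block, thinned sums, nuclei with at least 2000 genes, leaving out the 8% of nuclei with the most UMIs and leaving out each library. Adding marked barcodes and leaving out nuclei with astroglia UMIs were chosen after seeing the data. Some list genes and types are not reported here. Libraries came from separate pools, so p-values between genotypes measure the spread between pools, with batch included where no block was fitted. The interaction and the divisions had library as a term, so their p-values rest on differences within libraries. In all these fits edgeR draws the spread of a gene in part from the other genes. An SE or p-value can therefore be smaller than the gene's own spread over 4 libraries would give.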

Additional observations from a re-analysis of the deposited data

Results flagged for a closer look

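Barcodes outside the deposited annotation held a Purkinje signal, in data that the main comparisons do not use. Of 9721 such barcodes in the 4 PF/F libraries, 492 had at least 1000 detected genes, at least 3 UMIs over the 5 Purkinje markers and more UMIs over that list than over any other list. Their median depth was 13267.5 UMIs, against 6887 in annotated Purkinje nuclei, and 296 of them exceeded the highest annotated nucleus of their library. Calb1 stood in their sums at 641, 965, 902 and 822 CPM and Pcp2 at 220, 278, 151 and 168 CPM, and Gabra6, a marker of mature granule neurons, at 0.626 CPM in WT replicate 1 and at 0 in the other libraries. The granule neuron list stood at 604, 434, 242 and 254 CPM in them, above its 324, 268, 165 and 187 CPM in annotated Purkinje nuclei of the same libraries. Since the barcodes were chosen by the Purkinje markers, the levels of these markers are a description. Whether they are doublets was not tested.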

How the results depend on the processing

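Limits come first from 2 libraries per genotype, from free RNA and from few high nuclei, with 10 for Etv1 and 66 for Ebf2. The replicate block raised the genotype calls from 1 to 3, and with it the share of nuclei was still not called (adjusted p = 0.987, edgeR). The interaction and the divisions had library as a term and were not fitted with a further block. With marked barcodes added there were 0, and leaving out 1 library gave 1 to 19 (19 without WT replicate 1, 3 without WT replicate 2). The interaction gave 1 call with no filter and 0 to 14 when a library was left out (14 without WT replicate 1). In sums of thinned nuclei the calls were 65 for Rorb, 39 for Foxp1, 62 for Cdh9, 75 for Etv1 and 49 for Ebf2, from fewer genes tested. DESeq2 gave 58, 25, 59, 1 and 65 in that order, of which 58, 24, 58 and 65 were shared for Rorb, Foxp1, Cdh9 and Ebf2. Etv1 gave 4 with RLE factors and 44 with no filter. With no filter Rorb gave 190, 67 higher and 123 lower, Cdh9 32 higher and 93 lower, and Ebf2 37 higher and 123 lower. Foxp1 with DESeq2 gave 7 higher and 18 lower. Without 1 library the calls were 77 to 124 for Rorb, 74 to 97 for Foxp1, 72 to 110 for Cdh9, 5 to 13 for Etv1 and 92 to 152 for Ebf2. The log2 difference of the share became 0.16 with nuclei of at least 2000 genes, and -0.35 to 0.11 without 1 library. That per GNP became 0.20, and -0.56 to 0.33 without 1 library. The difference in median UMIs ran from -1888 to 446 without 1 library. Pcp2 between genotypes became -0.00191 without the 8% of nuclei with the most UMIs, and -0.22 to 0.26 without 1 library, negative without Tbx1+/- replicate 1 and at -0.19 without WT replicate 2. Shh ran from -0.27 (without Tbx1+/- replicate 1) to 0.54. Of 798 alternative values of 80 gene results in the divisions, 776 kept direction and call, 22 lost the call and 0 turned direction. These 80 were named for small p and a like direction in all 4 libraries, so this count follows in part from that choice. Among all calls, the thinned sums kept 52 of 127 for Rorb, 27 of 93 for Foxp1, 50 of 111 for Cdh9 and 47 of 157 for Ebf2. The cause of these changes was not tested.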

Other observations

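Of 1292 thinned Purkinje nuclei, 25 held both Rorb and Cdh9, where 13.2 would be met if the genes were independent within each library. By library the counts were 3, 6, 7 and 9, with 3.44, 2.76, 3.75 and 3.20 so computed, so WT replicate 1 had no excess. Both Rorb and Ebf2 were in 2 nuclei, with 5.94 so computed, and both Foxp1 and Cdh9 in 40, with 50.4. Both Rorb and Foxp1 were in 38, with 43.8, and both Cdh9 and Ebf2 in 6, with 7.30. These counts were not tested. Several genes known from adult Purkinje cells were low, with Pvalb, Aldoc, Hspb1, Scn4b and Pdyn all under 10 CPM in every library. They were picked for their low levels, and most genes of the lists were not so low. At 10 CPM or more on average were 31 of 33 calcium signalling genes and 20 of 24 stripe and subset genes. The same held for 26 of 29 excitability channels and 26 of 28 ataxia genes. Levels were not divided by transcript length, so they do not rank these genes against others. Zfhx3 stood at 2.02 to 7.58 CPM in Purkinje nuclei and at 1156 ± 76.9 CPM (SD, n = 4) in GABA.interneuron.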
